A study of Mus musculus with 3 samples.

Results

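A total of 6377 promoters were examined that carried an RNAP2 peak, had protein-coding starts on a single strand and had no Med12 peak. They were selected on measured values, namely the width of the RNAP2 peak and the absence of a Med12 call, as RNAP2 peaks narrower than 4000 bp that overlapped the interval of 1 kb on either side of protein-coding transcript starts, all on the same strand, and that shared no base with a Med12 peak. They made up 31.1% of the 20479 peaks in the RNAP2 list and 71.8% of the 8878 RNAP2 peaks (43.4% of the list) within 1 kb of coding starts. RNAP2 and Med12 had been mapped by ChIP-seq, in which protein crosslinked to DNA is precipitated with an antibody and the attached DNA is sequenced. The cells came from distal forelimbs of mouse embryos at E12.5, a stage at which digit primordia form, and were dissociated with collagenase and fixed with formaldehyde. The study used wild-type tissue without treatment and its labels name no strain or sex. There was 1 library for RNAP2 (antibody ab5131), 1 for Med12 (antibody A300-774A) and 1 of input chromatin, so no value below has a replicate error. Cells of several types were processed together, and fewer cells with RNAP2 at a gene cannot be told apart from less RNAP2 per cell.

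The promoter is the DNA around the position where RNAP2 starts to copy a gene. General initiation factors bring RNAP2 to this position, and the polymerase often pauses shortly downstream until elongation factors release it. Mediator is a large complex that bridges transcription factors and RNAP2, and Med12 belongs to its kinase module, which can detach from the rest of the complex. The absence of a Med12 peak therefore does not report on the other parts of Mediator. Most promoters of widely expressed genes in mammals lie in CpG islands, stretches where the dinucleotide CpG has escaped the loss seen in the rest of the genome.

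Short sequences that general promoter factors are known to bind were found in many of these promoters. Stretches of 9 promoters are printed because they belong to the highest-scoring members that hold each of 8 motifs, searched on both strands from 250 bp upstream to 50 bp downstream of the start in mm9. The motifs were the TATA box (TATAAA), read by the TATA-binding protein; the CCAAT box (CCAAT), bound by NF-Y; and the GC box (GGGCGG), bound by Sp1 and its relatives. The others were the ETS motif (CCGGAAG), the NRF1 motif (GCGCATGCG), the YY1 motif (AAGATGGCG), the cAMP response element or CRE (TGACGTCA) and the E-box (CACGTG). Capitals mark every match to these letters within the stretch, and each stretch is written 5′ to 3′ in the direction of the gene. Among all 22359 protein-coding genes, the window held the TATA box in 13.4%, the CCAAT box in 37.7%, the GC box in 44.7%, the ETS motif in 10.9%, the NRF1 motif in 2.07%, the YY1 motif in 1.91%, the CRE in 2.38% and the E-box in 7.85%. The NRF1 motif overlaps its own reverse complement when a further base extends it, and matches of different motifs shared a base in 1.32% of the members. A match is a description of letters and was not tested as a binding site.
Pcnp: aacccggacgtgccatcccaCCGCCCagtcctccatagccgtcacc
Cnn3: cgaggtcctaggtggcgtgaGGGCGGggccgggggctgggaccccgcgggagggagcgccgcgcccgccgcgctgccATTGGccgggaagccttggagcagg
Rplp0: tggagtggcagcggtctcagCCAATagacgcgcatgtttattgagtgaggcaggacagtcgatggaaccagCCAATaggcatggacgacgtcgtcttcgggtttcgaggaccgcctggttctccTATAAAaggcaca
Gtf2f1: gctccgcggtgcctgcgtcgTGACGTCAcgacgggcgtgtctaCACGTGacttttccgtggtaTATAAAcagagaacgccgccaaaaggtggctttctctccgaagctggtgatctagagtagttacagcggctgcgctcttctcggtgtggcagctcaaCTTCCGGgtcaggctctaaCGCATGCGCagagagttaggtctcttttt
Elk4: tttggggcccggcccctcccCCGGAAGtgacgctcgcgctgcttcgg
Pcif1: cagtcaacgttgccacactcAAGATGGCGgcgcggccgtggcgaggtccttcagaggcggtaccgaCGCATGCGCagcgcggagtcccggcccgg
Rps20: tcacaaagcacccggatgcgCACGTG
Nfyc: gacggtacaaacggcgcggcCGCCATCTT
Errfi1: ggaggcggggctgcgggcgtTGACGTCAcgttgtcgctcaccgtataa

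Gtf2f1, which encodes a subunit of the initiation factor TFIIF, held 5 of the motifs in 1 promoter, at chr17:57150704-57150911 on the minus strand. A CRE lay at -169 from the start, an E-box at -146, a TATA box at -126, an ETS motif at -29 and an NRF1 motif at -10. In Rplp0, a ribosomal protein gene at chr5:116009369-116009505 on the plus strand, CCAAT boxes lay at -87 and -36, and the TATA box lay at +18, inside the annotated transcript. The Pcif1 stretch (chr2:164704790-164704884, plus strand) held a YY1 motif at -55 and an NRF1 motif at -9. The remaining stretches were those of Pcnp (chr16:56029939-56029984, minus), Cnn3 (chr3:121129245-121129346, plus), Elk4 (chr1:133904109-133904155, plus), Rps20 (chr4:3762779-3762804, minus), Nfyc (chr4:120498281-120498309, minus) and Errfi1 (chr4:150229108-150229155, plus). Positions count from the annotated start of the lowest-numbered coding transcript at the peak, termed the anchor start, with no position 0.

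The members spanned almost the whole range of RNAP2 scores. The score is the value written by the peak caller, 10 times -log10 of the p-value of the peak, and the list reaches down to 40. A score under 50 was found at 343 members (5.38%). The members had a median score of 256 (interquartile range 108 to 631, from 40.02 to 3216.83) and a median width of 1377 bp (1142 to 1743 bp). For comparison, the 1227 single-direction coding promoters with a Med12 peak had a median score of 660 and a median width of 1666 bp, and the 815 bidirectional promoters without Med12 had 425 and 1561 bp. Width and the Med12 call chose the members and the score comes from the same peak calls, so these values are given without a test. Among all RNAP2 peaks, 78.3% shared no base with a Med12 peak, and this share was 82.0% at coding starts and 75.5% away from them. When the 7604 single-direction peaks were ordered by score and cut into quartiles, 92.8% of the lowest quartile, 89.0% of the next, 83.2% of the third and 70.5% of the highest had no Med12 peak. The absence of Med12 was thus less common where RNAP2 was called more strongly, although 1341 members belonged to the highest quartile. The Med12 list itself is weak, with a median score of 56.8 and 1966 of its 10634 peaks at 100 or more.

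**Figure D1:**
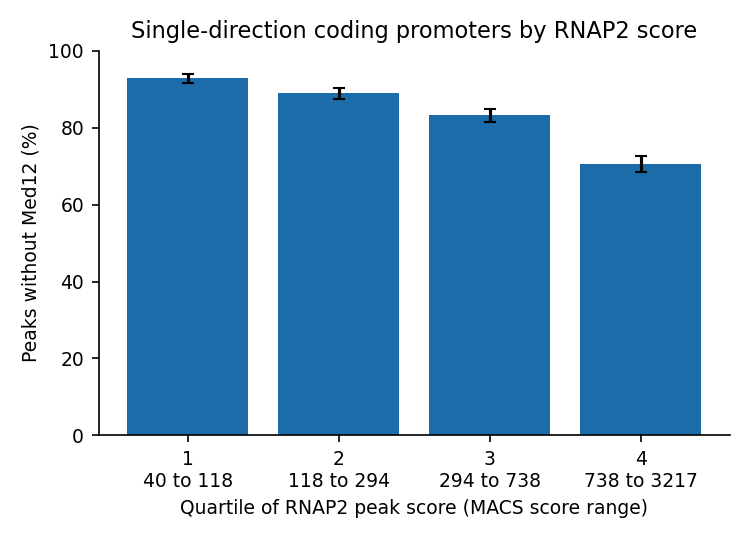
Share of single-direction coding promoters without a Med12 peak (vertical axis, %) in each quartile of RNAP2 score (horizontal axis, with the score range), with 1901 peaks in each; bars give the share and whiskers its 95% Wilson interval, which covers counting error alone. The share falls from 92.8% in the lowest quartile to 70.5% in the highest.

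The highest-scoring members belonged to genes of varied function. The highest score, 3216.83, belonged to Pcnp, which encodes a small nuclear protein. Cnn3, the actin-binding calponin 3, followed with 3194.94, and Rplp0 with 3171.9. Arf1, a small GTPase of vesicle transport, had 3156.29, Fasn, the fatty acid synthase, 3143.04 and Gtf2f1 3126.25. A further 64 members shared a score of exactly 3100, and they included Clk1, a kinase of splicing factors, Ncl, the nucleolar protein nucleolin, and Elk4, an ETS transcription factor. Of the peaks named here, that of Gtf2f1 was the closest to a Med12 peak, with 19684 bp in between, and the Pcnp peak (chr16:56028579-56030640) was 189142 bp away.

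The limits of the definition cut through a continuum of peaks. The widest members were at Caprin1 (3964 bp, score 632), Cnn3 (3959 bp) and Snai2 (3953 bp, score 2934), a zinc finger repressor of mesenchymal cells. Just past the limit lay peaks without Med12 at Tmtc2 (4005 bp, score 522), Rarg (4014 bp, score 422) and Ahcyl2 (4051 bp, score 722), and a total of 80 single-direction peaks without Med12 were too wide to be members. At the other edge, the RNAP2 peak at Kif2a ended 3 bp from a Med12 peak, that at Evx1 17 bp and that at Usp3 24 bp. Cdkl3, Smoc1 and Mdfi fell outside with overlaps of 21, 28 and 40 bp. The narrowest members were at Mier3, Lcor and Grb10, with 417, 423 and 432 bp.

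RNAP2 peaks of the members covered the start and reached further downstream than upstream, as did those of promoters with Med12. A coding start lay under 92.0% of them. Their upstream edge had a median distance of 601 bp from the anchor start and their downstream edge 740 bp, and the centre lay downstream of the start in 67.4% (95% Wilson interval 66.3 to 68.6%), by a median of 86 bp over all members. These intervals treat peaks of 1 library as independent and cover counting error alone. In promoters with Med12, the centre lay downstream in 63.4%, a difference of 4.04 percentage points (95% Newcombe interval 1.15 to 7.0). Their edges had median distances of 744 bp upstream and 900 bp downstream, and their centre a median of 83 bp downstream. The shift itself was therefore not particular to the members. In bidirectional promoters either strand could serve as the anchor, so their orientation is arbitrary and they were not compared. Peaks with a single annotated coding start gave a like order, with 66.4% of members and 61.2% of Med12 promoters. The difference between members and Med12 promoters varied with the RNAP2 score. It was -0.90 points in the lowest quartile (-8.66 to 7.67), 13.6 in the next (6.61 to 20.7), 4.36 in the third (-1.29 to 10.2) and 4.70 in the highest (0.19 to 9.34).

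**Figure D2:**
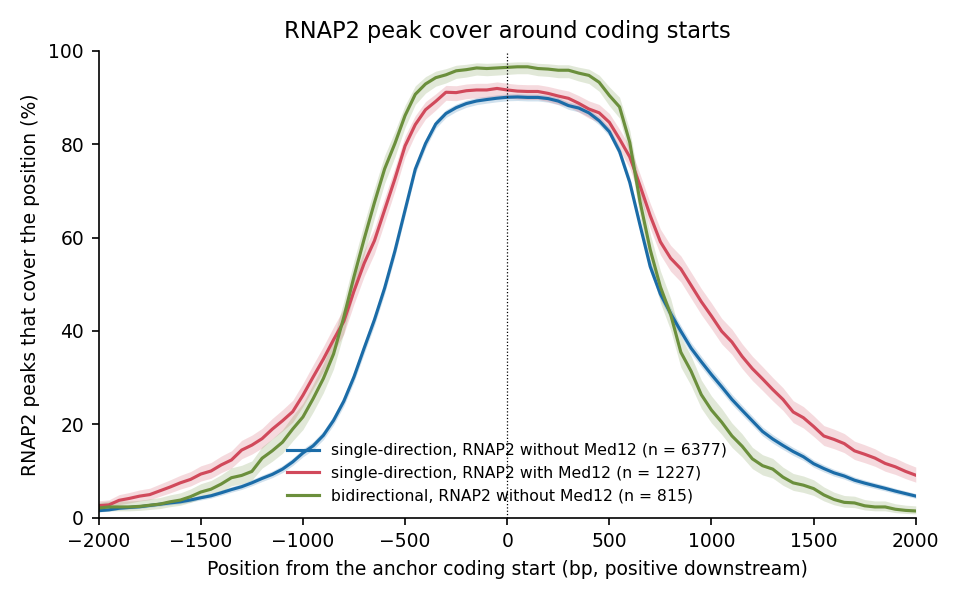
Share of RNAP2 peaks (vertical axis, %) that cover each position from 2000 bp upstream to 2000 bp downstream of the anchor start (horizontal axis, bp) for the 6377 members, 1227 promoters with Med12 and 815 bidirectional promoters; lines give the share and bands its 95% Wilson interval. Cover is shifted downstream in members, with median edges 601 bp upstream and 740 bp downstream, and in promoters with Med12, with 744 and 900 bp. The orientation of bidirectional promoters is arbitrary.

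A smaller set of 510 members covered no coding start. These had a median score of 90.9, against 282 for those that did, and their centres lay a median of 771 bp downstream. Measured from the anchor start alone, the peak lay entirely downstream in 387 members and entirely upstream in 248. These are not a split of the 510, since a peak can miss the anchor start and cover another coding start. Another RNAP2 peak lay within 1000 bp of 617 members, and in 95 of these cases that neighbour, or a further one, overlapped Med12. A Med12 peak came within 1 kb of a coding start of 73 members without touching their RNAP2 peak.

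Most members had CpG-rich promoters, as did promoters with Med12. A promoter was termed CpG-rich when the 500 bp on either side of the anchor start had a GC content of at least 50% and an observed to expected CpG ratio of at least 0.6. This was so for 78.8% of the members (77.8 to 79.8%), against 44.8% of all coding genes and 19.2% of coding genes without an RNAP2 peak at a start. Promoters with Med12 reached 81.1%, and the difference of -2.31 points had an interval from -4.64 to 0.18. Bidirectional promoters reached 88.7%, which was 9.93 points above the members (7.38 to 12.2). The median ratio was 0.76 in members, 0.79 with Med12, 0.78 in bidirectional promoters and 0.28 in genes without RNAP2. The score was higher at CpG-rich members, with a median of 311 in 5023 of them and 134 in the 1353 others. Because scores also differ between members and Med12 promoters, the comparison was repeated within score quartiles. The members were then richer, by 3.04 points in the lowest quartile (-4.98 to 11.7), 4.69 in the next (-1.45 to 11.5), 7.85 in the third (3.42 to 12.9) and 0.64 in the highest (-2.05 to 3.66), so the sign of the pooled difference was not that seen within any quartile.

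**Figure D3:**
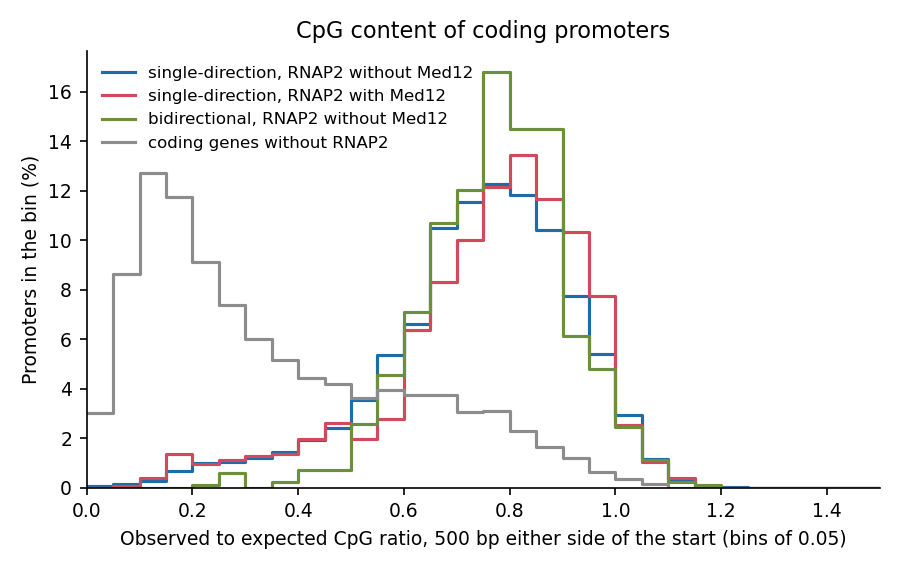
Distribution of the observed to expected CpG ratio within 500 bp of the anchor start (horizontal axis, bins of 0.05) as the share of promoters in each bin (vertical axis, %), for members, promoters with Med12, bidirectional promoters and coding genes without RNAP2. The RNAP2-bound classes peak together, with medians of 0.76, 0.79 and 0.78, apart from genes without RNAP2, with a median of 0.28.

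GC boxes and CCAAT boxes were the most frequent motifs among the members, and both were more frequent than in promoters with Med12. A GC box was found in 68.5% of members and 64.1% of Med12 promoters, a difference of 4.34 points (1.46 to 7.29), and a CCAAT box in 40.1% and 35.9%, a difference of 4.19 points (1.22 to 7.09). The ETS motif, bound by factors such as GABPA and Elk4, was found in 18.5% and 16.1%, a difference of 2.43 points (0.08 to 4.61). Among all coding genes the GC box was found in 44.7%, the CCAAT box in 37.7% and the ETS motif in 10.9%. The CCAAT box was thus nearly as frequent in coding genes at large as in members, and 36.1% of genes without RNAP2 held it. For the other 5 motifs the interval of the difference from Med12 promoters included 0, and no interval was adjusted for the number of motifs. Within score quartiles, the ETS difference was between 3.15 and 5.81 points. Its interval included 0 in the lowest quartile (-2.53 to 7.92) and the second (-2.61 to 7.80). The CCAAT box difference ranged from -0.49 to 7.74, and its interval included 0 in the same quartiles. The GC box difference ranged from 2.57 points in the highest quartile to 17.1 in the second, and its interval included 0 in the lowest and the highest.

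Bidirectional promoters differed more clearly in the ETS motif, which 29.9% of them held, 11.5 points above the members (8.25 to 14.8). They also held the YY1 motif more often, in 5.15% against 3.37% (a difference of 1.78 points, from 0.38 to 3.57), and the TATA box less often, in 3.68% against 6.55% (2.87 points, 1.24 to 4.14). Bidirectional promoters had higher RNAP2 scores, with a median of 425 against 256. Among members the ETS share was 13.2% in the lowest score quartile and 22.8% in the highest. The comparisons with bidirectional promoters were not repeated within score quartiles. A TATA box at its canonical place, from -40 to -15, was rare among members. It was found in 51 of them (0.80%), in 0.98% of Med12 promoters, in 2.33% of all coding promoters and in 3.40% of genes without RNAP2. The 51 members had a median score of 406. Motifs also had preferred places. The YY1 motif lay downstream of the start in 66.8% of its 226 matches, whereas 67.4% of the 288 matches of the CRE, the site of CREB family factors, fell in the 100 bp upstream of the start. The printed Nfyc stretch, with its YY1 motif at +23, and the Errfi1 stretch, with its CRE at -54, are examples. None of the 8 motifs was found in 10.7% of the members, 13.9% of Med12 promoters and 22.8% of all coding genes.

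**Figure D4:**
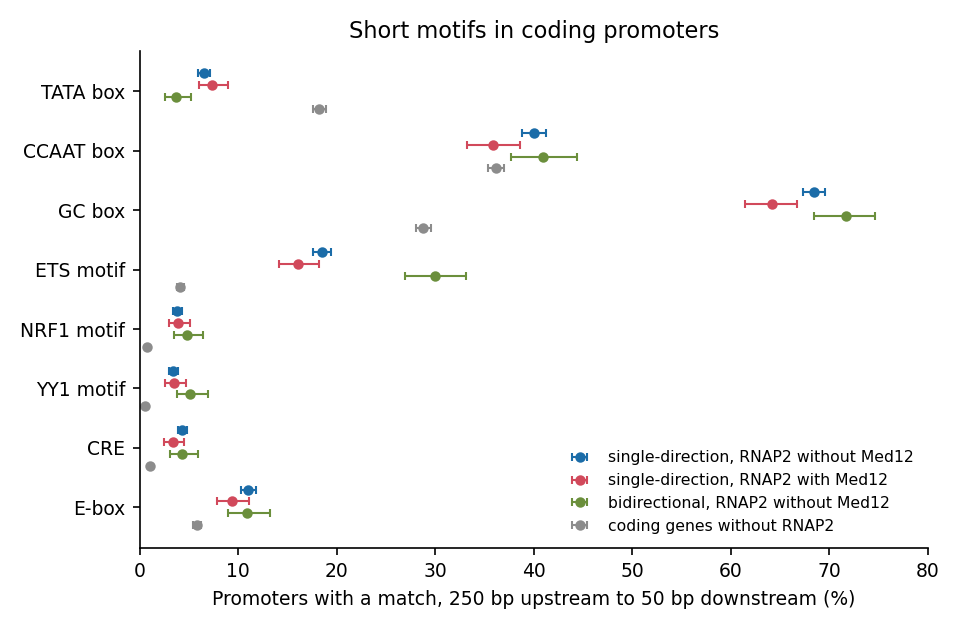
Share of promoters (horizontal axis, %) with a match to each of 8 motifs (vertical axis) between 250 bp upstream and 50 bp downstream of the start, for members, promoters with Med12, bidirectional promoters and coding genes without RNAP2; points give the share and whiskers its 95% Wilson interval. Members lie within 4.34 points of Med12 promoters for every motif, and bidirectional promoters stand apart in the ETS motif, at 29.9% against 18.5%. The orientation of bidirectional promoters is arbitrary, so their window can hold the start on the other strand.

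Antisense starts of noncoding transcripts were found at a minority of these promoters. By definition no coding start lay on the other strand, yet 617 members (9.68%, 8.97 to 10.4%) had a noncoding transcript starting on it, and 501 of them one of a long noncoding gene. The share was 11.1% in promoters with Med12, a difference of -1.41 points (-3.41 to 0.39). The members with such a start had a median score of 299, against 251 for those without.

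Med12 peaks were generally far from the members, and about as far from bidirectional promoters without Med12. Both classes were chosen to share no base with a Med12 peak, so these distances are a description and no test. The median distance from a member to the nearest was 76938 bp (interquartile range 29805 to 167016 bp), against 79653 bp from those bidirectional promoters. A Med12 peak lay within 1 kb of 1.82% of the members, within 5 kb of 5.90%, within 10 kb of 9.74% and within 50 kb of 37.2%. At bidirectional promoters without Med12 these shares were 1.72%, 3.68%, 7.12% and 34.7%. Where peaks below a score of 100 were left out of both lists, only 1.96% of the members had a Med12 peak within 10 kb. Of the genes that started at members and at no other class of RNAP2 peak, 13.9% held a Med12 peak in the gene beyond 1 kb of its coding starts. The share was 15.9% for genes that started at Med12 promoters alone. These classes were split by Med12 calls, so this is a description as well. Both values rose with gene length. Among genes of 100 kb or more they reached 53.9% and 56.2%.

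RNAP2 in the gene body differed more. A further RNAP2 peak beyond 1 kb of the coding starts was found in 23.4% of the 5804 genes at members alone and in 32.4% of the 1078 genes at Med12 promoters alone, a difference of -9.01 points (-12.1 to -6.07). At the end of the anchor transcript, within 1 kb, RNAP2 was called in 9.37% and 13.3%, a difference of -3.89 points (-6.17 to -1.84). The genes themselves had a like median length of 25004 and 27101 bp and a median of 9 exons in both sets. Peak scores at the start differed between these sets, as given above, and their part in the gene body result was not tested.

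A coding start at a member was found for 6043 of 22359 protein-coding genes, or 27.0%, which is the background for all genes of a list below. Among the 9349 genes with an RNAP2 peak at any coding start, the share was 64.6%, the background for the genes of a list that have RNAP2. Most of the 6043 genes had a single member peak, 305 had 2 and 33 had 3 or more. Wac, which encodes an adaptor protein that takes part in histone ubiquitination, had 6 member peaks. The first of them scored 1486, and the other scores ranged from 42.9 to 163. Auts2, a gene of neuronal development, had 5, with scores between 83.2 and 1177.

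In 130 genes both a member and a promoter with Med12 lay within 1 kb of coding starts. The strongest peaks of both kinds were a median of 6668 bp apart, and in 40 genes their centres were under 2000 bp apart, so that these can be neighbouring peaks at the same start, as at Usp3. The Med12 promoter was the upstream one in 83 genes (63.8%, 55.3 to 71.6%). It also had the higher RNAP2 score in 85 of the 130 genes, with a median of 458 against 177 for the member. Gtf2a1, which encodes subunits of the initiation factor TFIIA, and Snrnp70, a protein of the U1 snRNP, were among them.

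Members were less frequent on the X chromosome when all genes were counted and more frequent among genes with RNAP2. Of the coding genes on X, 20.2% started at a member, against 27.3% on autosomes (difference 7.17 points, 4.41 to 9.69). Of those with an RNAP2 peak, 188 of 233 (80.7%) started at a member on X and 64.2% on autosomes, a difference of 16.5 points in the other direction (10.8 to 21.1). Correspondingly, 11 of 202 single-direction peaks on X overlapped Med12 (5.45%, 3.07 to 9.49%), against 16.4% on autosomes (15.6 to 17.3%). The members on X had a lower median RNAP2 score, 186 against 258. Within score quartiles, Med12 was found on X at 4 of 65 peaks in the lowest (6.15%, 2.42 to 14.8%), against 7.25% on autosomes, and at 1 of 63 in the second (1.59%, 0.28 to 8.46%), against 11.4%. It was found at 4 of 53 in the third (7.55%, 2.97 to 17.9%), against 17.1%, and at 2 of 21 in the highest (9.52%, 2.65 to 28.9%), against 29.7%. The interval on X included the autosomal share in the lowest and the third quartile. The sex of the embryos is not given, and its part in this result was not tested.

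Factors that control pausing and elongation of RNAP2 were members in 18 of 25 cases, the highest share among the gene lists over all their genes. All 25 had RNAP2 at a start. Of the NELF complex, which holds paused RNAP2, Whsc2 (score 1500), Cobra1 (502) and Th1l (210) were members, whereas Rdbp had a bidirectional promoter. Both subunits of DSIF, the partner of NELF in pausing, were members, with scores of 1301 for Supt5h and 832 for Supt4h1. P-TEFb, the kinase that releases paused RNAP2, was represented by Cdk9 (386) and Ccnt1 (3100), while the promoter of its other cyclin, Ccnt2, had Med12. Hexim1, which inhibits P-TEFb, had a score of 1609, and the super elongation complex genes Aff4 and Aff1 had 2988 and 1558. Of the PAF1 complex, which travels with elongating RNAP2, Ctr9 (338), Rtf1 (279), Cdc73 (118) and Leo1 (64.6) were members. The 7 genes without a member were Ccnt2 and Tcea1, with Med12 at a single-direction promoter, and Rdbp, Supt6h, Ssrp1, Larp7 and Paf1, with bidirectional promoters. With 25 genes, the share of 72.0% is near the 64.6% of all genes with RNAP2. Zfp zinc finger genes had a higher share among genes with RNAP2, at 76.8%.

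Mediator's own genes were members in 20 of 33 cases. This was 62.5% of the 32 with RNAP2, near the 64.6% of all genes with RNAP2. Med21 had the highest score (1775), followed by Med17 (768), Med1 (766), Cdk19 (730) and Med14 (690). Genes of the kinase module fell on both sides. Med12 itself (130), Med12l (70.2), Med13l (365), Cdk19 and Ccnc (154) were members, whereas the promoters of Med13 (RNAP2 score 1220) and Cdk8 (186) carried Med12. The other promoters with Med12 were those of Med6, Med7, Med15, Med23 and Med26. Med8, Med19, Med20, Med22 and Med29 had bidirectional promoters, and Med27 had no RNAP2 peak at a coding start.

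The core machinery was split between classes. Among genes with RNAP2, members were 36.4% of RNAP2 subunits, 50% of general initiation factors and 46.7% of spliceosome subunits. The share over all genes with RNAP2 was 64.6%, and these differences were not tested. Of 12 RNAP2 subunits, Polr2d (1078), Polr2k (489), Polr2c (377) and Polr2g (134) were members, while Polr2a, the largest subunit, had an RNAP2 score of 3100 at a promoter with Med12, and Polr2e had no RNAP2 peak. Of 31 general initiation factors, 15 were members. Gtf2f1 (3126), Gtf2a1 and Taf13 (both 3100), Taf4a (2539) and Ercc3 (1657), a helicase of TFIIH, had the highest scores, Tbp, the TATA-binding protein, had 506, and Ercc2 had no RNAP2 peak. Of 30 spliceosome subunits, 14 were members, led by Sf3b1 (3066), Sf3b4 (2538), Snrpg (1983), U2af1 (1835) and Snrpe (1618).

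Housekeeping complexes had RNAP2 at nearly every gene, and members at shares of their RNAP2-bound genes from 25% for the CCT chaperonin to 68.4% for the cytosolic tRNA synthetases, beside 64.6% over all RNAP2-bound genes. These differences were not tested. All 32 proteasome subunits had RNAP2, and 17 were members, with Psma6 (3100), Psmb7 (937), Psma3 (872), Psmd4 (763) and Psmc4 (761) highest. Cct2 (2711) and Cct4 (2040) were the members among 8 subunits of the CCT chaperonin, which folds actin and tubulin. Of the others, 3 had bidirectional promoters without Med12, and Tcp1 and Cct6a had bidirectional promoters with Med12. Cct8 had a single-direction promoter with Med12. Among 36 subunits of respiratory complex I, 15 were members, led by Ndufa6 (2750) and Ndufb6 (771), and Ndufa1, Ndufa8 and Ndufb8 had no RNAP2 peak. Mitochondrial ribosomal proteins gave 35 of 76, with a median score of 199 and Mrps14 (1417) and Mrps6 (1109) highest. Of 17 TCA cycle enzymes, 6 were members, Ogdh (620) and Fh1 (604) being highest, and of 10 RNA exosome subunits, 4 were, with Exosc10 (405) highest. Cytosolic tRNA synthetases reached 13 of 20, with Eprs (3100) and Nars (2226) highest and Lars without RNAP2.

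Genes of DNA replication and chromosome structure included strong members. Pcna, the sliding clamp of DNA polymerase, scored 3100, and Mcm5, a subunit of the replicative helicase, 1585. Cdt1 (954), Orc5 (662) and Orc2 (627) followed in a list of 21 licensing factors of which 12 were members and Gins3 had no RNAP2 peak. This was 60% of the 20 with RNAP2, near the 64.6% of all genes with RNAP2. Of 11 genes of cohesin and CTCF, which shape chromatin loops, 5 were members, namely Wapal (499), Ctcf (489), Stag2 (470), Rad21 (241) and Pds5a (169). Smc3 and Stag1 had promoters with Med12, Nipbl had an RNAP2 peak of 4756 bp, and Pds5b had none. Members were thus 50% of the 10 genes of this list with RNAP2. Zinc finger genes named Zfp were members in 185 of 365 cases, and 124 had no RNAP2 peak, so that 76.8% of those with RNAP2 were members. Zfp963 (2795) and Zfp410 (2683) had the highest scores. None of 1087 olfactory receptor genes, which are expressed in the nose, had RNAP2 at a coding start.

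**Figure D5:**
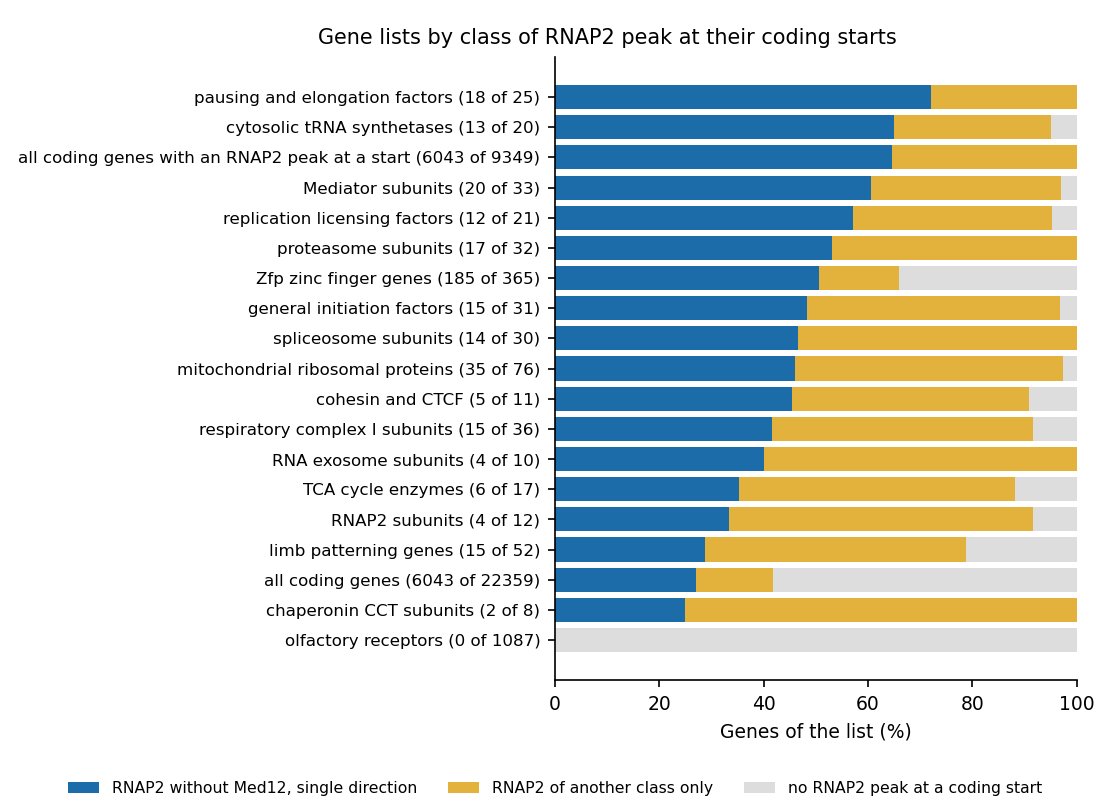
Share of the genes in each list (horizontal axis, %) with a coding start at a member, with RNAP2 of another class only, and with no RNAP2 at a coding start; numbers in parentheses give genes at members and genes in the list. Over all genes of a list, pausing and elongation factors have the highest share, with 18 of 25. This 72.0% is near the 64.6% of all genes with RNAP2. No olfactory receptor gene has RNAP2.

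Limb patterning genes started at members about as often as coding genes in general, but less often when only genes with RNAP2 were counted. Of 52 such genes, 15 had a member (28.8%, against 27.0% of all coding genes). This was 36.6% of the 41 with RNAP2, against 64.6% of all genes with RNAP2, a difference that was not tested. An RNAP2 peak of 4000 bp or more was found at 29 of the 52 genes, and 11 had no RNAP2 at a coding start. Some wide peaks were shared, as that over Hoxa9 and Hoxa10 was. Lhx2, a LIM homeobox gene of the distal limb, had the highest score among the members (1144), followed by Hoxa13 (535), Bmp2 (444), Sall3 (441) and En1 (423), a homeobox gene of the ventral ectoderm. Fgf10, the mesenchymal signal to the apical ridge, had the lowest with 99.97. The members at Hoxa13, Ptch1, Lmx1b, Lhx9 and Prrx1 belonged to genes that also had a wide peak at a coding start, and Lmx1b and Prrx2 also had a promoter with Med12. Genes without an RNAP2 peak at a coding start included Shh, Gli1, Grem1, Fgf8, Bmp4, Wnt7a, Sall4, Alx4, Jag2 and Etv4.

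Markers of the dissected tissue and of other cell types were read in the same way. All 10 markers of limb mesenchyme had RNAP2 at a coding start, 8 of them under a wide peak and 5 at a member. The 5 ectoderm markers, including Trp63, Krt5 and Krt14, had no RNAP2 at a start, nor had the 5 blood and 4 nerve markers. Of the muscle markers, Pax3 (score 283) and Pax7 (62.9), which mark muscle precursors, were members, and Myf5, Myod1 and Myog had no RNAP2. Kdr, a receptor of endothelial cells, was a member with a score of 148, and the other 4 endothelial markers had no RNAP2. Of the cartilage markers, Sox9 and Col2a1 had wide peaks, Col9a1 had a promoter with Med12, Acan had no RNAP2, and none was a member.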

How the data were processed

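RNAP2 and Med12 ChIP-seq peaks from mouse distal forelimb were used as the authors deposited them. Per the submitters' notes and the study's methods, reads were mapped to mm9 with Bowtie and peaks were called with MACS 1.4.1 in each library. Each deposited peak has a position and a score. The methods state a p-value threshold that corresponds to a score of 50, and both lists reach lower, to 40. The lists hold no read counts, so the depth at a peak is unknown. The input library has no peak list. The input is not named as the control in the sources used here. The design text of the series gives another stage than the labels, which were followed.

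The reference genome was mm9 with GENCODE vM1 genes. Peaks were classified with Python 3.11.15 and numpy 2.4.6, sequences were read with pysam 0.24.0 and samtools 1.23.1, and figures were drawn with matplotlib 3.10.9. The classification was tested on simulated data, in which all 3000 planted peaks were recovered. Shares carry 95% Wilson intervals and differences of shares 95% Newcombe intervals. No p-value was computed, since regions of 1 library are not replicates. The anchor start was that of the lowest-numbered coding transcript at the peak. A gene was counted once for each class found at its coding starts.

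The members and the gene lists were chosen with earlier results of these data known. Genes were named by rule: the 10 highest-scoring members; the widest members and those nearest to Med12, with their neighbours past each limit; in each list, up to 5 of the highest-scoring members and the genes without one; the highest-scoring holders of each motif outside chromosome 18; and the genes with most member peaks. Some genes that the rule picks are not reported here. The kinase, NELF, PAF1 and other subunits named beyond this rule, and the narrowest members, were picked with their values in view. Alternatives were a minimum score of 50 or 100, a promoter interval of 500 bp, a gap of 500 bp to Med12, all transcripts of coding genes, the nearest start as anchor, a width under 2000 bp, autosomes alone and a CpG window of 250 bp.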

Additional observations from a re-analysis of the deposited data

How the results depend on the processing

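Under the 8 alternatives that bear on it, the number of members stayed within 1.5 times of 6377, and 39 of 58 recomputed values stayed within the intervals or limits of those reported. The share centred downstream was 63.1% with the nearest start as anchor and 66.0% for widths under 2000 bp. The CpG-rich share was 83.4% and 80.1% at minimum scores of 100 and 50, 75.2% with all transcripts of coding genes, 79.9% with the nearest start, 77.4% for widths under 2000 bp and 83.4% with the CpG window of 250 bp. The difference in CpG-rich share from promoters with Med12 turned to 4.53 points (0.20 to 9.57) at a score of 100, where 303 Med12 promoters were left, and to 0.24 with the CpG window of 250 bp. Its interval, which includes 0 as reported, lay below 0 with 500 bp promoters (-4.85 to -0.08), the gap of 500 bp (-5.03 to -0.33) and all transcripts (-5.10 to -0.11). The share with an opposite-strand noncoding start was 8.85% with 500 bp promoters, 8.92% with all transcripts and 8.79% for widths under 2000 bp. The share with Med12 within 10 kb was 1.96% and 6.36% at scores of 100 and 50, 8.87% with the gap of 500 bp and 8.94% for widths under 2000 bp. Of coding genes, 24.9% started at a member at a score of 100 and 23.1% for widths under 2000 bp. A higher minimum score removes RNAP2 peaks and also Med12 peaks, so that some promoters leave the class and others enter it. The causes of the other shifts were not tested. No paired analysis was possible because the series has a single RNAP2 library and a single Med12 library, and no result comes from a fit across samples. The lists give scores without counts, so a missing Med12 peak means that none was called at this depth.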
